A study of Mus musculus with 21 samples.

Results

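The genes described here are 6 members of the tumor necrosis factor (TNF) pathway. They comprise the cytokine gene Tnf, its 2 receptor genes Tnfrsf1a and Tnfrsf1b, the adaptor gene Traf1, the ubiquitin ligase gene Birc3, and the necroptosis kinase gene Ripk3. They were taken by symbol from a table of 45706 genes, all 6 were found, and all 6 passed the filter on low counts that left 23815 genes for testing. Their levels were followed in innate immune cells sorted from mouse brain after controlled cortical impact (CCI), a model of traumatic brain injury.

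The libraries formed 7 groups of 3. Microglia, sorted as CD45low CD11b+ cells, came from WT sham controls, and, for both WT and Fgg390-396A animals, from brains taken 1 d or 7 d post-CCI. Infiltrating myeloid cells, sorted as CD45hi CD11b+ cells, came from WT and Fgg390-396A mice at 1 d only. Sham controls went through the surgery up to the opening of the skull but received no impact, and the labels give no time point for them. Fgg390-396A mice carry a germline change in the fibrinogen γ chain that removes the motif bound by the integrin CD11b/CD18 and leaves clotting intact, and the change is not limited to a cell type. All mice were males of 17 to 24 weeks on the C57BL/6 background, and each library pooled the tissue around the lesion of 2 brains. No sham group existed for Fgg390-396A mice or for infiltrating myeloid cells, so the mutant microglia were compared with WT sham controls and all 4 sham comparisons share the same 3 control libraries.

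TNF is made as a membrane protein that is cut from the cell surface, and activated microglia and macrophages are among its main sources in injured brain. TNFR1, encoded by Tnfrsf1a, is present on most cells and carries a death domain, while TNFR2, encoded by Tnfrsf1b, is found mainly on immune and endothelial cells and recruits TRAF proteins directly. The receptor complexes signal through NF-kB and MAP kinases to survival genes such as Birc3 and Traf1, and when that branch is blocked the same ligand can lead to apoptosis through caspase-8 or to necroptosis through RIPK3 and the pore-forming protein MLKL.

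The promoters of Tnf and Ripk3 are shown because both genes rose in microglia at 1 d post-CCI, and that of Tnfrsf1a because its level differed little among groups. Each sequence is the 250 bases before the start of the RefSeq gene on GRCm38.p6, read 5′ to 3′ on the coding strand, with matches to the TATA box (TATAAA, coding strand) and the GC box (GGGCGG, both strands) in capitals. Tnf lies on the minus strand at chr17:35202008-35202257, Ripk3 on the minus strand at chr14:55788858-55789107, and Tnfrsf1a on the plus strand at chr6:125349473-125349722.
Tnf: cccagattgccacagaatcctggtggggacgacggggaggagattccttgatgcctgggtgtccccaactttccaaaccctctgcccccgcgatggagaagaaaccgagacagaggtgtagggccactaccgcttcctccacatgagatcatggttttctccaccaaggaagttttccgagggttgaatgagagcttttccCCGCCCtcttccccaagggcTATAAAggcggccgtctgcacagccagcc
Ripk3: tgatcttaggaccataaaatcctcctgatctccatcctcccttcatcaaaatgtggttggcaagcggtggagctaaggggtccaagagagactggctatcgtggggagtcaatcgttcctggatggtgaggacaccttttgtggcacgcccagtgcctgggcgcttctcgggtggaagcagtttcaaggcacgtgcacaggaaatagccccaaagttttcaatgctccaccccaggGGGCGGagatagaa
Tnfrsf1a: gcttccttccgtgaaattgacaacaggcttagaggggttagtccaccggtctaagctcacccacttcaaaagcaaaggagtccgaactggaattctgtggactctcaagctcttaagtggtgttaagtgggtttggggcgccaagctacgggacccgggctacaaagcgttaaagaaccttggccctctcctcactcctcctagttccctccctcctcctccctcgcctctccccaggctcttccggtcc
The TATA box of Tnf ended 24 bases before the start, and 7.59% of 32851 promoter windows of this length held one. A GC box was present in the windows of Tnf and Ripk3 and in 32.7% of all windows. No match to the AP-1 motif (TGANTCA, both strands, in 6.75% of all windows) or to the 10-letter NF-kB consensus (both strands, in 3.9%) was found in any of the 6 members' windows, which says only that these letters are not within 250 bases of the annotated start.

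Each library held between 18896957 and 51875767 counts (median 27001646), and ribosomal RNA genes took 43.0% to 58.5% of them. Levels are given as CPM, counts relative to the library total after scaling between libraries with edgeR's TMM factors. Since the deposited counts are already divided by transcript length, levels of different genes can be compared within a library. A count of 3, taken as the smallest level that can be shown, corresponded to between 0.0448 and 0.158 CPM and covers counting error only. The least abundant member values were 8 counts of Traf1 and 12 counts of Ripk3 in 1 library. Summed over 10 microglia markers, the level was 10820 to 12057 CPM in sham controls, 2883 to 8722 CPM in microglia post-CCI and 366 to 996 CPM in infiltrating myeloid cells. The sum of 10 monocyte and macrophage markers was 85.9 to 955 CPM in microglia and 5464 to 7111 CPM in infiltrating myeloid cells, and that of 10 neutrophil markers 1.94 to 775 CPM and 2516 to 12993 CPM. The CD45hi CD11b+ libraries held neutrophil as well as monocyte transcripts, and the microglia libraries held smaller amounts of both. Genes were called where the log2 fold change exceeded 1 in either direction and the adjusted p was under 0.05, or under 0.1 between genotypes. The p-values came from the quasi-likelihood test of edgeR and were adjusted over all genes tested by the Benjamini-Hochberg method.

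Tnf was low but measurable in sham microglia and was the member with the widest range among microglia. Its level was 4.62, 1.78 and 1.06 CPM in sham controls, 66.2, 51.1 and 46.2 CPM in WT microglia at 1 d, and 30.0, 21.2 and 43.1 CPM in Fgg390-396A microglia at 1 d. At 7 d it was 9.22, 22.0 and 14.4 CPM in WT mice and 14.4, 15.7 and 10.5 CPM in Fgg390-396A mice. Every library post-CCI was above every sham library, and within each genotype every 1 d library was above every 7 d library. In infiltrating myeloid cells Tnf reached 109, 35.1 and 74.9 CPM in WT mice and 22.3, 30.4 and 41.1 CPM in Fgg390-396A mice. Ordered by group mean, WT infiltrating myeloid cells (72.9 ± 36.9 CPM, SD, n = 3) and WT microglia at 1 d (54.5 ± 10.4) overlapped. They were followed by Fgg390-396A microglia at 1 d (31.4 ± 11.0) and Fgg390-396A infiltrating myeloid cells (31.3 ± 9.45), which also overlapped. The lowest WT infiltrating myeloid library (35.1 CPM) lay below the highest library of both these Fgg390-396A groups (43.1 and 41.1 CPM). The 7 d groups (15.2 ± 6.44 in WT and 13.5 ± 2.73 in Fgg390-396A) could not be separated, and sham controls (2.49 ± 1.88) came last.

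**Figure D1:**
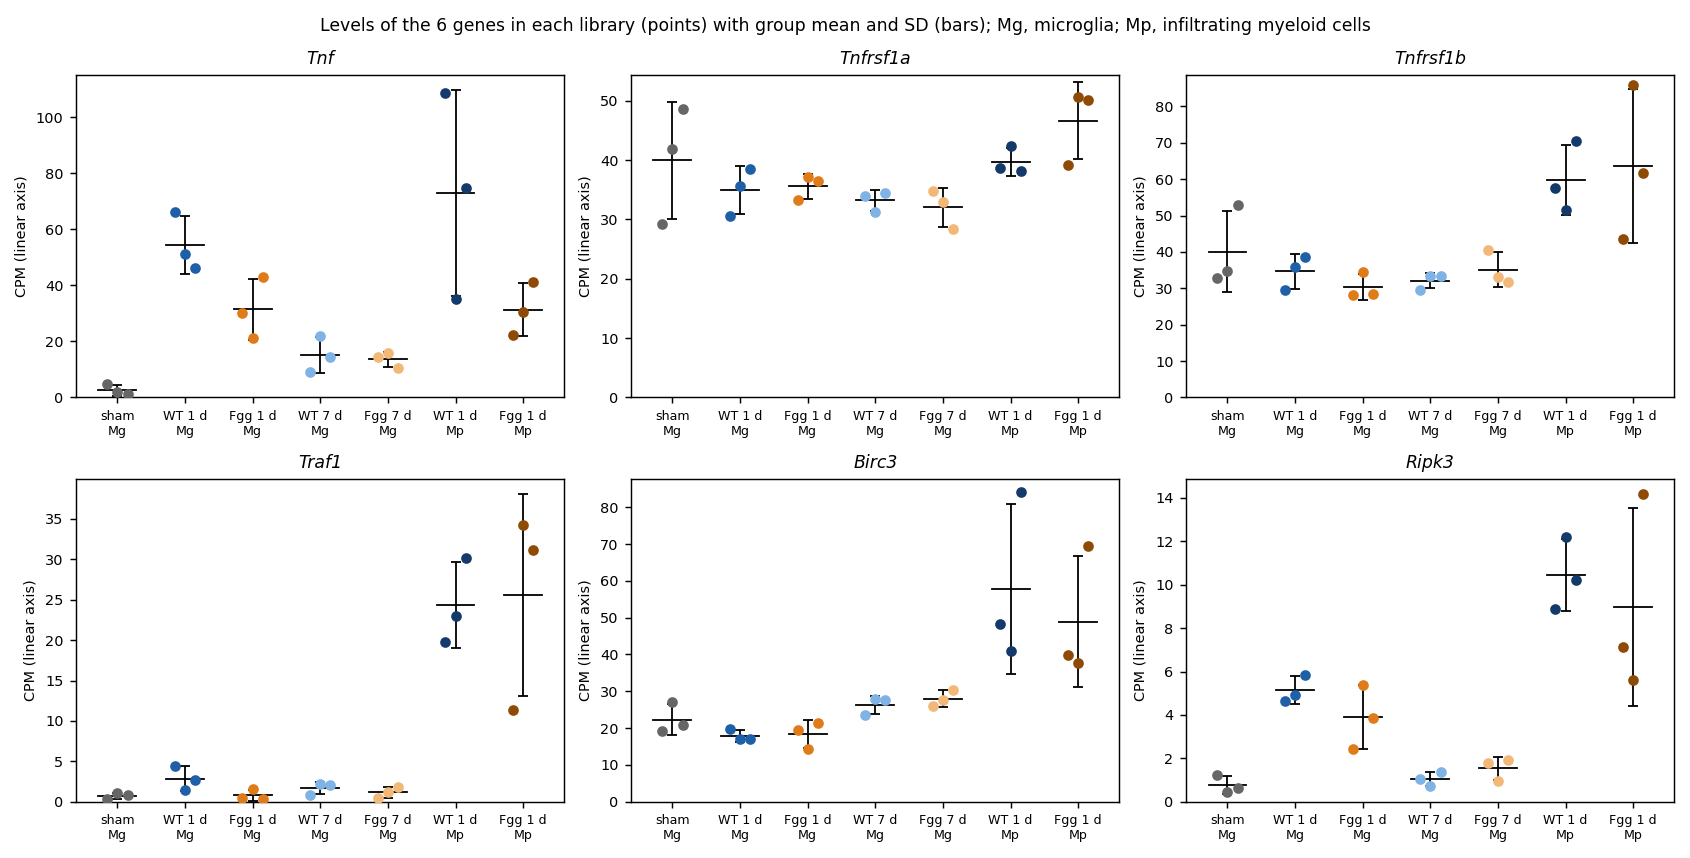
Levels of the 6 genes in CPM (vertical axes, linear) in each of the 7 groups, with 1 point per library and the group mean and SD as bars; Mg is microglia and Mp infiltrating myeloid cells. Tnf rose from at most 4.62 CPM in sham libraries to at least 21.2 CPM in every 1 d microglia library, whereas all Tnfrsf1a points lay between 28.5 and 50.7 CPM.

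Tnfrsf1a, the gene for TNFR1, was the steadiest member. Its library values ran from 28.5 to 50.7 CPM, and the highest group mean was 1.46 times the lowest. In sham controls it measured 29.3, 41.9 and 48.7 CPM, a wider spread than in any microglia group post-CCI. At 1 d it was 30.6, 35.7 and 38.5 CPM in WT microglia and 33.2, 37.2 and 36.4 CPM in Fgg390-396A microglia, both within the sham range. In infiltrating myeloid cells it was 38.7, 42.4 and 38.1 CPM in WT mice and 39.1, 50.7 and 50.2 CPM in Fgg390-396A mice. Neighbouring groups in the order of means overlapped with 1 exception: the lowest WT infiltrating myeloid library (38.1 CPM) lay above the highest Fgg390-396A microglia library at 1 d (37.2 CPM).

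Tnfrsf1b, the gene for TNFR2, divided the libraries mainly by cell population. Its levels were 32.7, 34.6 and 52.9 CPM in sham controls, 29.4, 35.8 and 38.7 CPM in WT microglia at 1 d, and 28.1, 34.4 and 28.5 CPM in Fgg390-396A microglia at 1 d. At 7 d the range was 29.6 to 33.5 CPM in WT mice and 31.7 to 40.6 CPM in Fgg390-396A mice. The 5 microglia groups therefore overlapped one another. Infiltrating myeloid cells held 57.6, 51.5 and 70.4 CPM in WT mice and 43.6, 85.8 and 61.8 CPM in Fgg390-396A mice, above all microglia at 1 d, although the highest sham library fell within these ranges.

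Because levels are per length, the ligand gene can be set against the receptor gene Tnfrsf1a within each library. The ratio of Tnf to Tnfrsf1a was 0.158, 0.0426 and 0.0217 in sham controls and 2.16, 1.43 and 1.20 in WT microglia at 1 d. Tnf transcripts thus outnumbered those of Tnfrsf1a in all 3 of the latter, but Tnfrsf1b was not counted in this ratio. In Fgg390-396A microglia at 1 d the ratio was 0.903, 0.571 and 1.18, above 1 in 1 library. At 7 d it was between 0.271 and 0.705 in both genotypes. In infiltrating myeloid cells it was 2.82, 0.828 and 1.97 in WT mice and 0.570, 0.599 and 0.820 in Fgg390-396A mice. The ratio of Tnfrsf1b to Tnfrsf1a stayed between 0.783 and 1.16 in all 15 microglia libraries and was 1.11 to 1.85 in the 6 infiltrating myeloid libraries. Its means there were 1.52 ± 0.317 in WT and 1.35 ± 0.307 in Fgg390-396A mice (SD, n = 3), against 0.990 ± 0.0257 and 0.851 ± 0.0708 in microglia at 1 d.

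**Figure D2:**
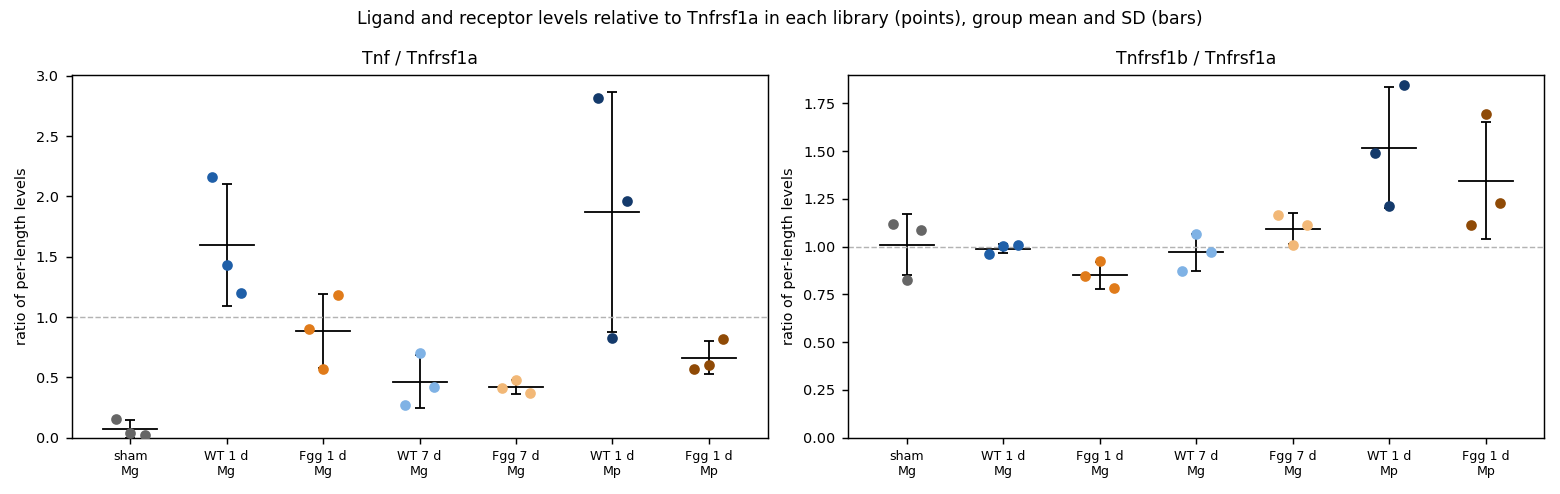
Ratio of Tnf to Tnfrsf1a (left) and of Tnfrsf1b to Tnfrsf1a (right), per-length levels, in each library (points) with the group mean and SD (bars); the dashed line marks equal levels. WT microglia at 1 d lay between 1.20 and 2.16 for Tnf to Tnfrsf1a, and sham controls between 0.0217 and 0.158.

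Traf1, an adaptor that binds TNFR2 complexes and is itself a target of NF-kB, was a gene of the infiltrating myeloid cells. Microglia held 0.287, 1.06 and 0.855 CPM in sham controls, 4.47, 1.48 and 2.65 CPM in WT mice at 1 d, and 0.507, 1.59 and 0.321 CPM in Fgg390-396A mice at 1 d. At 7 d the values were 0.860, 2.15 and 2.01 CPM in WT mice and 0.487, 1.22 and 1.76 CPM in Fgg390-396A mice. Infiltrating myeloid cells held 19.8, 23.0 and 30.2 CPM in WT mice and 11.3, 34.3 and 31.2 CPM in Fgg390-396A mice. All 6 of these libraries were above all 15 microglia libraries, and the microglia groups overlapped, except that WT mice at 1 d lay above all sham libraries.

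Birc3, which encodes cIAP2, a ubiquitin ligase that keeps RIPK1 in the survival branch, was well expressed in every library. It measured 19.2, 27.0 and 20.8 CPM in sham controls, 19.7, 16.9 and 16.9 CPM in WT microglia at 1 d, and 19.5, 14.2 and 21.4 CPM in Fgg390-396A microglia at 1 d. At 7 d the values were 23.6, 27.8 and 27.7 CPM in WT mice and 25.9, 27.7 and 30.4 CPM in Fgg390-396A mice, above all 1 d microglia of the same genotype. Infiltrating myeloid cells held 48.1, 41.1 and 84.2 CPM in WT mice and 39.8, 37.6 and 69.4 CPM in Fgg390-396A mice, and no microglia library reached these levels. Although both genes are NF-kB targets, Birc3 exceeded Traf1 at least 4.41-fold in each microglia library and by 1.10-fold to 3.52-fold in infiltrating myeloid cells.

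Ripk3, the kinase that phosphorylates MLKL in necroptosis, was low but measurable in every library, with 12 to 507 counts. Its level was 1.21, 0.456 and 0.628 CPM in sham controls, 4.62, 4.92 and 5.86 CPM in WT microglia at 1 d, and 2.43, 5.39 and 3.86 CPM in Fgg390-396A microglia at 1 d. At 7 d it was 1.05, 0.732 and 1.35 CPM in WT mice and 1.77, 0.933 and 1.94 CPM in Fgg390-396A mice, both overlapping the sham range. Infiltrating myeloid cells held 8.90, 12.2 and 10.2 CPM in WT mice and 7.14, 5.63 and 14.2 CPM in Fgg390-396A mice. In the order of group means, from WT infiltrating myeloid cells (10.4 ± 1.67 CPM, SD, n = 3) down to sham controls (0.765 ± 0.396), the gap without overlap between neighbours lay between Fgg390-396A microglia at 1 d and at 7 d.

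At 1 d post-CCI, WT microglia had 22.0-fold more Tnf transcript than sham microglia, 6.66-fold more Ripk3 and 3.90-fold more Traf1. Fgg390-396A microglia had 12.7-fold more Tnf and 5.05-fold more Ripk3, and their Traf1 overlapped the sham range. Neither receptor gene nor Birc3 differed from sham controls past the threshold in either genotype. In bulk libraries, fewer cells of a type and less RNA per cell cannot be told apart. The log2 fold changes in WT mice were 4.46 for Tnf (SE 0.52, adjusted p = 5.81e-06, edgeR), 2.74 for Ripk3 (SE 0.45, adjusted p = 0.000189) and 1.96 for Traf1 (SE 0.62, adjusted p = 0.0339). In Fgg390-396A mice they were 3.66 for Tnf (SE 0.50, adjusted p = 6.82e-05), 2.34 for Ripk3 (SE 0.44, adjusted p = 0.00128) and 0.15 for Traf1 (SE 0.63, adjusted p = 1). In all, 3 of 6 members rose in WT mice, where 8.06% of all genes tested were called higher and 4.21% lower. In Fgg390-396A mice 2 of 6 rose, where 5.49% were called higher and 1.15% lower. The 95% intervals of the log2 fold change were -0.55 to 0.16 for Tnfrsf1a, -0.68 to 0.26 for Tnfrsf1b and -0.86 to 0.22 for Birc3 in WT mice.

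The Tnf and Ripk3 calls at 1 d held in each of the alternatives run, whereas that of Traf1 in WT mice did not. Without WT replicate 1 the log2 fold change of Traf1 was 1.49 (adjusted p = 0.142), without WT replicate 3 it was 2.05 (adjusted p = 0.0586), without sham replicate 1 it was 1.58 (adjusted p = 0.146), without sham replicate 3 it was 2.10 (adjusted p = 0.0696), and in a fit of the compared groups alone it was 1.96 (adjusted p = 0.0736). WT replicate 1, with the highest Traf1 of its group, also had the most monocyte and macrophage marker transcript (509 CPM against 156 and 167 CPM) and the most neutrophil marker transcript (775 CPM against 123 and 511 CPM). In each other microglia group, the library with the most of either marker set was not the one with the highest Traf1. At 7 d WT replicate 1 had the most monocyte and macrophage marker transcript of its group (955 CPM) and the lowest Traf1 (0.860 CPM). At 1 d Fgg390-396A replicate 1 had the most of its group (432 CPM), with Traf1 at 0.507 CPM against 1.59 CPM in replicate 2. The part of monocytes, macrophages and neutrophils in the Traf1 level was not tested. Sham replicate 1, which had the highest Tnf of the sham controls, had 991 CPM of 12 dissociation response genes such as Fos and Hspa1a, against 141 and 187 CPM in the other sham libraries. Without it the log2 fold change of Tnf was 5.28 in WT and 4.48 in Fgg390-396A mice. The 12 genes summed to 320 to 429 CPM in WT microglia at 1 d and 81.6 to 306 CPM in Fgg390-396A microglia at 1 d, and their part in the Tnf level was not tested.

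**Figure D3:**
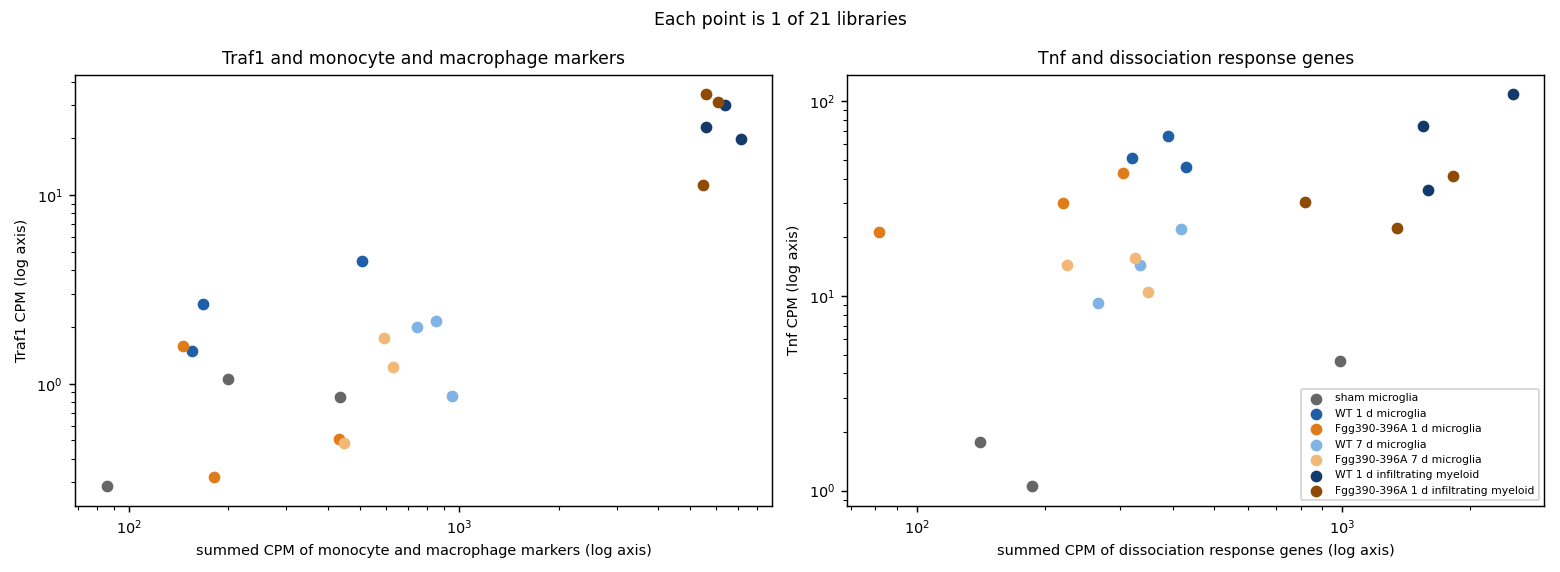
Left, Traf1 against the summed level of 10 monocyte and macrophage markers; right, Tnf against the summed level of 12 dissociation response genes; CPM on log axes, 1 point per library, colored by group. WT microglia at 1 d had 156 to 509 CPM of the former markers against at least 5464 CPM in infiltrating myeloid cells, and the sham library with 991 CPM of dissociation response genes had 4.62 CPM of Tnf.

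Around the 6 members, 98 of 102 further genes of the pathway were tested, and in WT microglia at 1 d 11 were called higher and 3 lower, where 8.06% of all genes tested were called higher and 4.21% lower. Their median log2 fold change was 0, as over all genes tested. Among TNF superfamily ligands, with 15 of 18 genes tested and Tnf included, 3 were called higher and 1 lower. Tnfsf9, the ligand of the costimulatory receptor 4-1BB, rose from 1.43, 1.06 and 1.23 CPM to 9.47, 11.0 and 10.3 CPM (log2 fold change 3.04, adjusted p = 5.72e-06, edgeR). Its receptor gene Tnfrsf9 rose as well, from 0, 0.114 and 0.101 CPM to 0.878, 2.24 and 2.15 CPM, with sham counts of at most 4 that give no reliable fold. Tnfsf10, which encodes the death ligand TRAIL, was called lower, at 0.992, 0.615 and 0.351 CPM against 3.60, 1.71 and 2.64 CPM in sham controls (log2 fold change -2.01, adjusted p = 0.0466). Of 27 receptor genes tested, 4 were called higher, among them Tnfrsf12a, the receptor for TWEAK (log2 fold change 2.03, adjusted p = 0.00809), and Tnfrsf26 (2.65, adjusted p = 0.00473), at 1.03, 0.470 and 2.89 CPM. Tnfrsf17, known as BCMA, was called lower, with 14.9, 14.4 and 10.9 CPM in sham controls and 2.14, 0.0724 and 0.664 CPM in WT microglia at 1 d.

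Among 18 feedback and survival genes that TNF can induce, 4 were called higher in WT microglia at 1 d and none lower, with a median log2 fold change of 0.12. For this and the following lists in WT mice, the shares over all genes tested were 8.06% higher and 4.21% lower. Besides Traf1 these were Ier3, an early response gene, at 2.70 (adjusted p = 0.000543, edgeR), the BCL-2 family survival gene Bcl2a1b at 1.35 (adjusted p = 9.14e-05), and Sod2, the mitochondrial superoxide dismutase, at 1.33 (adjusted p = 0.001). Bcl2a1b has close paralogs, so its share of reads is uncertain. Of 21 genes of the TNFR1 signaling complex, 1 was called higher and 1 lower. Mapkapk2, the kinase that phosphorylates RIPK1 and stabilizes Tnf mRNA, rose by a log2 fold change of 1.35 (adjusted p = 0.000162), and Traf5, another adaptor, fell by 1.00 on the log2 scale (adjusted p = 0.0394). Of 16 apoptosis and necroptosis genes, 2 were called higher, Ripk3 and Zbp1, a nucleic acid sensor that can activate RIPK3. Zbp1 went from 0.797, 1.18 and 3.22 CPM in sham controls to 7.60, 7.49 and 9.95 CPM (log2 fold change 2.24, adjusted p = 0.00953). Mlkl did not pass the threshold, with 0.344, 0.977 and 4.22 CPM against 0.223, 1.48 and 0.176 CPM in sham controls. In Fgg390-396A microglia at 1 d, 6 of the 98 genes were called higher and none lower, where 5.49% of all genes tested were called higher, so that their share was near that of all genes. They included Zbp1 (11.2, 5.79 and 40.5 CPM, log2 fold change 3.43, adjusted p = 0.000629), Tnfsf9 (2.47, adjusted p = 8.49e-05), Ier3 (1.69, adjusted p = 0.0266, with a library at 11.4 CPM under the highest sham library at 13.8 CPM), Mapkapk2 (1.07, adjusted p = 0.0023) and Bcl2a1b (1.01, adjusted p = 0.00225).

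**Figure D4:**
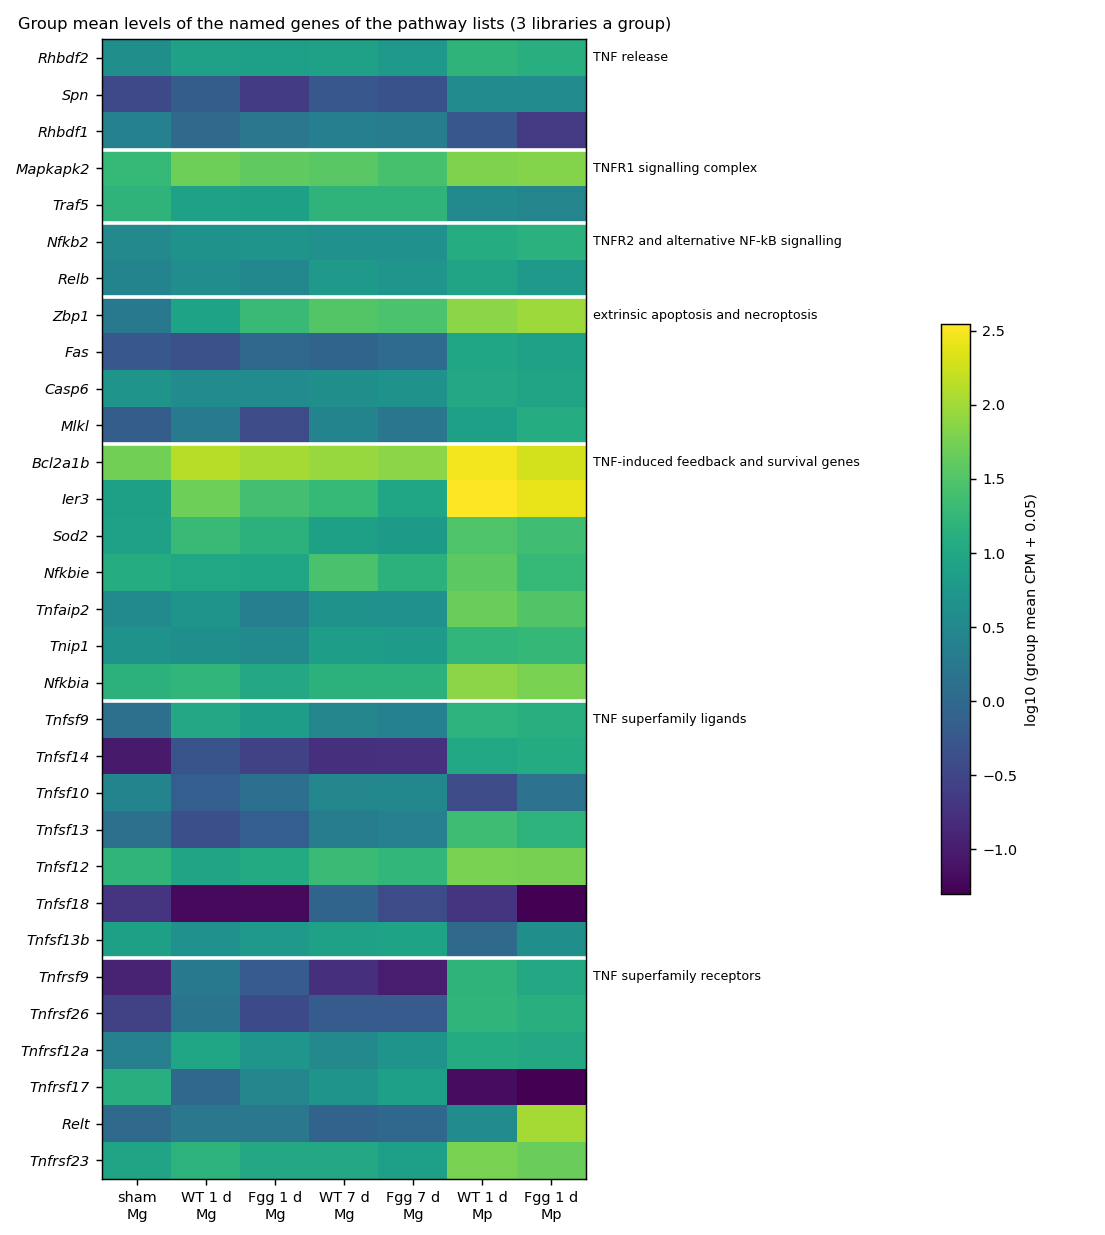
Group mean levels of 31 named genes of the TNF pathway lists, drawn as log10 of the mean CPM plus 0.05 (color), with the 7 groups in columns and the lists separated by white lines. Zbp1 was higher in every group post-CCI than in sham controls, Ier3 and Nfkbia were highest in infiltrating myeloid cells, and the high Relt value in Fgg390-396A infiltrating myeloid cells came from 1 library with 314 CPM.

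At 7 d post-CCI, Tnf was the member that remained above sham controls, 6.13-fold in WT and 5.46-fold in Fgg390-396A microglia. Ripk3 and Traf1 overlapped the sham range and were not called in either genotype, and the receptors and Birc3 were again not called. The log2 fold change of Tnf was 2.62 in WT mice (SE 0.48, adjusted p = 0.0039, edgeR) and 2.45 in Fgg390-396A mice (SE 0.48, adjusted p = 0.0152). For Ripk3 it was 0.45 (SE 0.44, adjusted p = 0.771) and 1.01 (SE 0.44, adjusted p = 0.586), and for Traf1 1.20 (SE 0.62, adjusted p = 0.471) and 0.64 (SE 0.63, adjusted p = 0.912). The 95% interval for Ripk3 in Fgg390-396A mice, 0.0992 to 1.92, did not include 0 before adjustment. In each genotype 1 of 6 members was thus called higher, where 1.93% of all genes were called higher and 0.0924% lower in WT mice, and 0.63% and 0.0336% in Fgg390-396A mice. In a fit of the compared groups alone the adjusted p of Tnf was 0.0549 in WT and 0.0993 in Fgg390-396A mice. In Fgg390-396A mice it was 0.0502 without replicate 2, 0.0971 without sham replicate 2 and 0.0618 without sham replicate 3. Monocyte and macrophage markers summed to 747 to 955 CPM in WT and 450 to 629 CPM in Fgg390-396A microglia at 7 d, against 85.9 to 438 CPM in sham controls, and their part in the Tnf level was not tested. Without sham replicate 1 the log2 fold change of Tnf was 3.44 in WT and 3.27 in Fgg390-396A mice.

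Of the 98 other pathway genes, 1 was called in each genotype at 7 d. This was Zbp1, at 32.2, 29.7 and 36.4 CPM in WT and 42.8, 19.8 and 21.5 CPM in Fgg390-396A microglia (log2 fold change 4.22, adjusted p = 0.000522, and 3.99, adjusted p = 0.00209, edgeR). Of all genes tested, 1.93% were called higher and 0.0924% lower in WT mice, and 0.63% and 0.0336% in Fgg390-396A mice. The median log2 fold change of the 98 genes was 0.17 in WT and 0.08 in Fgg390-396A mice, beside 0 over all genes tested in both.

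Between 1 d and 7 d, Tnf and Ripk3 declined in WT microglia. Tnf at 7 d stood at 0.279 of its 1 d level (log2 fold change -1.84, SE 0.46, adjusted p = 0.0115, edgeR) and Ripk3 at 0.204 (log2 fold change -2.29, SE 0.44, adjusted p = 0.00168). Of the 6 members, 2 were called lower and 0 higher, where 4.39% of all genes were called lower and 2.67% higher. In Fgg390-396A microglia the log2 fold change was -1.21 for Tnf (SE 0.45, adjusted p = 0.149) and -1.33 for Ripk3 (SE 0.42, adjusted p = 0.0769), and 0 of 6 members were called, where 2.88% of all genes were called lower and 0.663% higher. There, 3 of 6 members had an unadjusted p under 0.05 (edgeR), as did 3894 of the 23815 genes tested. DESeq2 called 1 member, Ripk3, at an adjusted p of 0.0357. Traf1 was not called in either genotype, with log2 fold changes of -0.77 in WT and 0.49 in Fgg390-396A mice. Birc3 was higher at 7 d in all 3 libraries of each genotype without passing the test (0.56, adjusted p = 0.205, and 0.61, adjusted p = 0.228, edgeR). The share of all genes that separate in this way was not counted, so separation alone is not read as a change with time. The Tnf call in WT mice was lost without 7 d replicate 1 (adjusted p = 0.0544) or 7 d replicate 3 (adjusted p = 0.0514), and Ripk3 in Fgg390-396A mice was called without 1 d replicate 1 (adjusted p = 0.037) and Tnf there in a fit of the compared groups alone (adjusted p = 0.0339).

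Whether the time course itself differed by genotype was tested directly as the genotype effect at 7 d minus that at 1 d. No member was called (0 of 6 by edgeR and by DESeq2), and 0% of all genes were called higher and 0% lower. An unadjusted p under 0.05 (edgeR) was found for 0 of 6 members and for 653 of the 23815 genes tested. The difference was 0.63 for Tnf (95% interval -0.69 to 1.94), 0.96 for Ripk3 (-0.28 to 2.21) and 1.25 for Traf1 (-0.53 to 3.04) on the log2 scale. Among other pathway genes, Tnfsf9 fell in both genotypes from 1 d to 7 d (log2 fold change -1.88, adjusted p = 0.000857 in WT, and -1.53, adjusted p = 0.00783 in Fgg390-396A, edgeR), as did Sod2 (-1.39, adjusted p = 0.00137, and -1.24, adjusted p = 0.00609). Tnfrsf9 fell too, to 0.0956, 0.0813 and 0.193 CPM in WT and 0.154, 0 and 0 CPM in Fgg390-396A mice, of which the highest is 6 counts. In WT mice Tnfsf13, the gene for APRIL, was called higher at 7 d (2.45, adjusted p = 0.014), but its libraries overlapped, at 1.43, 0.650 and 4.25 CPM against 0.420, 0.651 and 0.0781 CPM at 1 d, and replicate 3 held most of the 7 d transcript. Tnfsf12, the gene for TWEAK, was higher at 7 d (1.26, adjusted p = 0.0185), as were Zbp1 (1.97, adjusted p = 0.0242) and Traf5 (1.04, adjusted p = 0.0468). In all, 6 of the 98 genes were called higher and 3 lower in WT mice, and 0 and 3 in Fgg390-396A mice. Of all genes tested, 2.67% were called higher and 4.39% lower in WT mice, and 0.663% and 2.88% in Fgg390-396A mice.

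The fibrin comparison asked whether loss of CD11b binding by fibrinogen altered these genes. At 1 d all 3 Fgg390-396A microglia libraries had less Tnf than all 3 WT libraries, with a mean of 31.4 against 54.5 CPM. This difference did not pass the test over all genes (log2 fold change -0.80, SE 0.44, 95% interval -1.72 to 0.13, adjusted p = 0.89, edgeR). How many of all genes separate in this way was not counted, so the separation alone is not read as a genotype difference. Traf1 was at 0.805 against 2.87 CPM with overlapping libraries (-1.81, SE 0.61, adjusted p = 0.861), and Ripk3 at 3.89 against 5.13 CPM (-0.40, SE 0.41, adjusted p = 0.974). The 95% interval for Traf1, -3.08 to -0.54, did not include 0 before adjustment. None of the 6 members was called by edgeR or by DESeq2, while 0.0336% of all genes were called higher and 0.021% lower. An unadjusted p under 0.05 (edgeR) was found for 1 of 6 members and for 1209 of the 23815 genes tested. The summed dissociation response genes were also lower in Fgg390-396A mice. They came to 389.9, 320.3 and 429.3 CPM in the WT libraries and 221.3, 81.6 and 305.7 CPM in the Fgg390-396A libraries, which did not overlap. Within the WT libraries their order was not that of Tnf (66.2, 51.1 and 46.2 CPM). Within the Fgg390-396A libraries the orders were the same (Tnf at 30.0, 21.2 and 43.1 CPM). Of the 12 genes, 10 were lower in Fgg390-396A mice and 0 were called, with a median log2 fold change of -0.72, and their part in the Tnf level was not tested.

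At 7 d the libraries of the genotypes overlapped for every member, with log2 fold changes of -0.17 for Tnf (95% interval -1.10 to 0.77), -0.56 for Traf1 and 0.56 for Ripk3 (adjusted p = 1 for each, edgeR). No member was called by either tool, beside 0.0252% of all genes called higher and 0.0126% lower. None had an unadjusted p under 0.05 (edgeR), beside 795 of the 23815 genes tested. In infiltrating myeloid cells mean Tnf was 31.3 CPM in Fgg390-396A against 72.9 CPM in WT mice (log2 fold change -1.22, SE 0.45, 95% interval -2.16 to -0.29, adjusted p = 0.306), and the WT library with 35.1 CPM fell below the highest Fgg390-396A library at 41.1 CPM. Traf1 differed by 0.08 (SE 0.55) and Ripk3 by -0.22 (SE 0.41) on the log2 scale. No member was called by either tool and 1 had an unadjusted p under 0.05, beside 0.252% of all genes called higher and 0.202% lower. WT replicate 1, with 109 CPM of Tnf, had 2523 CPM of dissociation response genes against 1599 and 1551 CPM in the other WT libraries, and 821 to 1821 CPM were found in Fgg390-396A mice. Of the 12 genes, 10 were lower in Fgg390-396A mice and 0 were called (median log2 fold change -0.54). Neutrophil markers summed to 3466 to 12993 CPM in WT and 2516 to 5723 CPM in Fgg390-396A mice, and the part of either in the Tnf level was not tested.

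Averaged over the 3 pairs of groups (microglia at 1 d and 7 d and infiltrating myeloid cells at 1 d), Tnf was lower in Fgg390-396A than in WT mice by 0.73 on the log2 scale (SE 0.26, 95% interval -1.27 to -0.19, adjusted p = 0.398, edgeR) and Traf1 by 0.77 (SE 0.34, adjusted p = 0.509). Of the 12 dissociation response genes, 10 were also lower on this average, with a median log2 fold change of -0.50, and 1 of them, the stress-induced transcription factor gene Atf3, was called (-1.04, adjusted p = 0.0826). Of the 6 members, 0 were called by edgeR or DESeq2, beside 0.0756% of all genes called higher and 0.0672% lower. An unadjusted p under 0.05 (edgeR) was found for 2 of 6 members and for 2165 of the 23815 genes tested. The difference in genotype effect between infiltrating myeloid cells and microglia at 1 d was 1.89 for Traf1 (SE 0.82, adjusted p = 0.553) and -0.43 for Tnf (SE 0.62, adjusted p = 1). Again 0 of 6 were called by either tool, beside 0.0042% of all genes called higher and 0.042% lower. For this difference 1 of 6 members had an unadjusted p under 0.05 (edgeR), as did 1994 of the 23815 genes tested. Of the 98 other pathway genes, 0 differed between genotypes in microglia at either time. In infiltrating myeloid cells Relt, an orphan receptor of the family, was called higher at an adjusted p of 0.0956, but its levels were 314, 4.86 and 4.06 CPM in Fgg390-396A against 3.27, 2.05 and 5.45 CPM in WT mice, so that the call came from 1 library.

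Infiltrating myeloid cells held more Traf1 and Birc3 transcript than microglia of the same genotype at 1 d, and Tnf was not called between them. Traf1 was 8.47-fold higher in infiltrating myeloid cells than in microglia of WT mice and 31.4-fold higher in Fgg390-396A mice. Birc3 was 3.24-fold and 2.66-fold higher. Tnfrsf1b was 2.10-fold and Ripk3 2.31-fold higher in Fgg390-396A mice, while in WT mice their ratios were 1.73 and 2.03, which edgeR did not call in the fit of all groups. For Tnfrsf1a the ratio was 1.14 in WT and 1.31 in Fgg390-396A mice, and neither was called. For Tnf the log2 fold change was 0.42 in WT (95% interval -0.50 to 1.35) and -0.01 in Fgg390-396A mice (-0.93 to 0.92), and its sign in Fgg390-396A mice turned under other scalings.

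The log2 fold changes were 3.08 in WT mice (SE 0.61, adjusted p = 0.00127, edgeR) and 4.97 in Fgg390-396A mice (SE 0.67, adjusted p = 2.25e-05) for Traf1, and 1.70 (SE 0.26, adjusted p = 0.000136) and 1.41 (SE 0.26, adjusted p = 0.000587) for Birc3. Tnfrsf1b gave 0.79 (SE 0.23, adjusted p = 0.0204), under the bar of 1, in WT mice and 1.07 (SE 0.23, adjusted p = 0.00186) in Fgg390-396A mice. Ripk3 gave 1.02 (SE 0.41, adjusted p = 0.107) and 1.21 (SE 0.41, adjusted p = 0.0424). In WT mice Ripk3 was called by DESeq2 (1.10, adjusted p = 0.0326), which called 3 of 6 members there, and by edgeR in a fit of the compared groups alone (1.09, adjusted p = 0.0218). The genotype difference in this contrast was 0.19 for Ripk3 (95% interval -1.02 to 1.39, adjusted p = 1, edgeR). In WT mice 2 of 6 members were called higher, where 5.61% of all genes were higher and 6.31% lower. In Fgg390-396A mice 4 of 6 were called higher, where 6.96% were higher and 9.7% lower, and where the median log2 fold change of all genes tested was -0.13. The Traf1 and Birc3 calls held in both genotypes under each alternative. Ripk3 in Fgg390-396A mice lost its call without microglia replicate 1 (adjusted p = 0.179), microglia replicate 3 (0.0999) or infiltrating myeloid replicate 3 (0.248). It also lost its call in a fit of the compared groups alone (0.0996) and with a block for the replicate number (0.0642). Tnfrsf1b had 0.80, under the bar, without infiltrating myeloid replicate 2. Without microglia replicate 2, which had the highest Traf1 of its group, the log2 fold change of Traf1 in Fgg390-396A mice was 5.89.

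**Figure D5:**
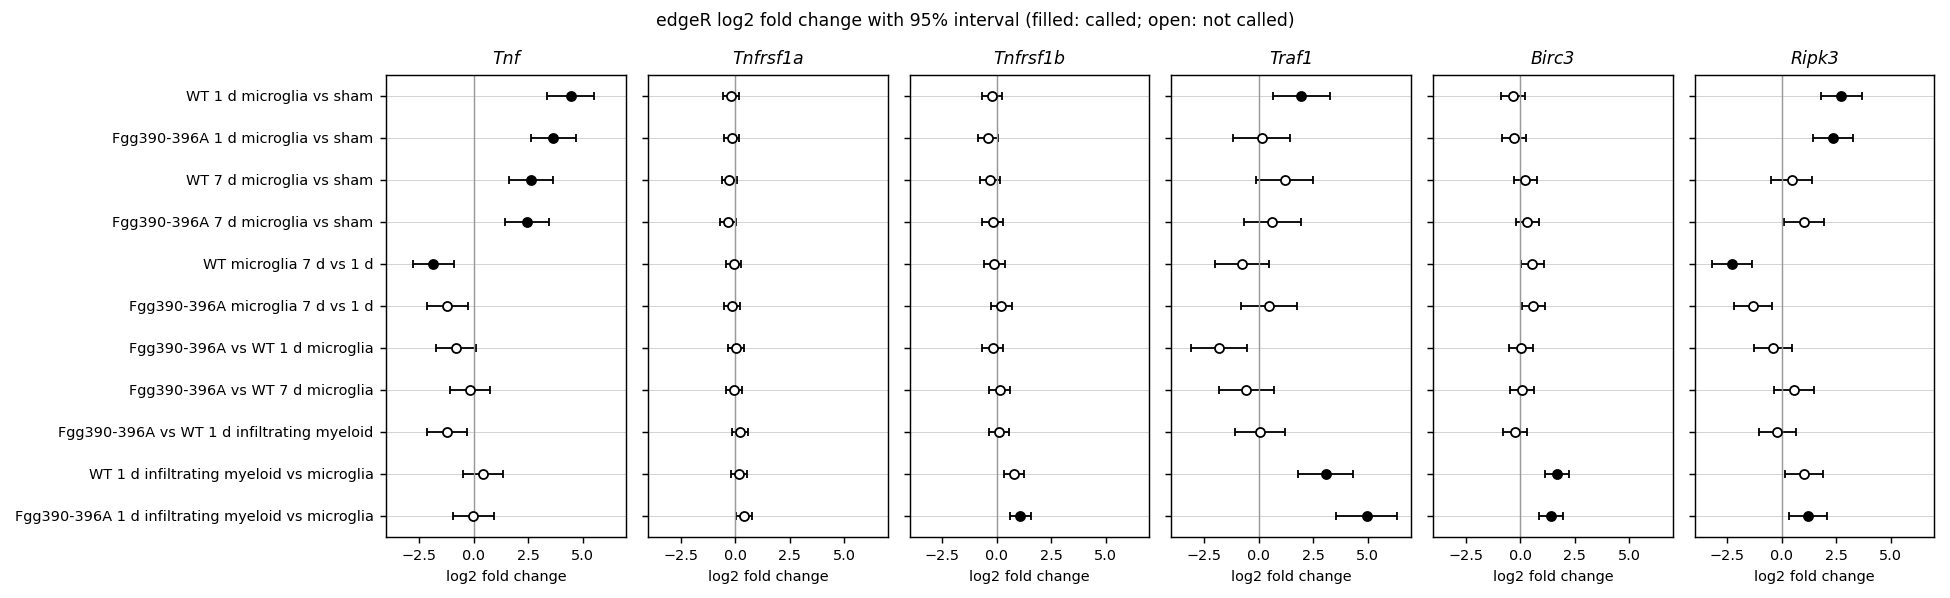
edgeR log2 fold change (horizontal axes) with its 95% interval for each of the 6 genes in 11 comparisons (rows); filled points were called and open points were not. Tnf was called in all 4 comparisons with sham controls, Traf1 and Birc3 in both comparisons of infiltrating myeloid cells with microglia, and no gene in the 3 rows between genotypes.

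Many other genes of the pathway were called between the populations. In WT infiltrating myeloid cells 23 of the 98 other genes were called higher and 3 lower, and in Fgg390-396A mice 23 and 3. Of all genes tested, 5.61% were called higher and 6.31% lower in WT mice, and 6.96% and 9.7% in Fgg390-396A mice. The median log2 fold changes of the 98 genes were 0.62 and 0.41, beside 0 and -0.13 over all genes tested. Among feedback and survival genes, with Birc3 and Traf1 included, 10 of 18 were called higher in WT and 8 in Fgg390-396A mice and none lower. In the same comparisons all 12 dissociation response genes had positive fold changes, 8 being called higher in WT (median log2 fold change 2.29) and 9 in Fgg390-396A mice (2.08). Their part in these differences, including those of Birc3 and Traf1, was not tested. Tnfaip2 rose by 3.34 (adjusted p = 4.12e-05, edgeR) and 3.79 (1.07e-05) on the log2 scale, Nfkbia, the NF-kB inhibitor IkBα, by 2.14 (0.00021) and 2.49 (4.23e-05), and Tnip1, a partner of the deubiquitinase A20, by 2.05 (0.000194) and 2.46 (2.58e-05). In the alternative NF-kB list, Nfkb2, which encodes p100, was higher in both genotypes (1.35, adjusted p = 0.0158, and 1.53, adjusted p = 0.00544, the latter with a library at 5.38 CPM under the highest microglia library at 5.97 CPM) and Relb in WT mice (1.20, adjusted p = 0.0246).

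Of 16 apoptosis and necroptosis genes, 3 were called higher in WT and 5 in Fgg390-396A infiltrating myeloid cells. Of all genes tested, 5.61% and 6.96% were called higher there. Zbp1 reached 91.8, 59.8 and 77.2 CPM in WT mice (log2 fold change 3.19, adjusted p = 0.000571, edgeR) and 77.9, 67.4 and 141 CPM in Fgg390-396A mice (2.32, adjusted p = 0.0047). The death receptor gene Fas rose by 4.52 (adjusted p = 0.00221) and 3.02 (adjusted p = 0.0163), and Casp6, an executioner caspase, by 1.59 in WT mice (adjusted p = 0.0198). Mlkl, the target of RIPK3, measured 3.57, 16.8 and 15.5 CPM in Fgg390-396A infiltrating myeloid cells against 0.179, 0.277 and 0.562 CPM in microglia (5.19, adjusted p = 0.00058). In WT mice it was not called, at 10.7, 5.32 and 6.36 CPM in infiltrating myeloid cells against 0.344, 0.977 and 4.22 CPM in microglia (2.02, adjusted p = 0.111). In the TNFR1 complex list, by contrast, 0 of 21 genes were called higher in either genotype and 1, Traf5, was called lower in both (-1.21, adjusted p = 0.0162, and -1.46, adjusted p = 0.00351), although in WT mice the highest infiltrating myeloid library (4.16 CPM) was just above the lowest microglia library (4.14 CPM). In the TNF release list, Rhbdf2 rose by 1.02 in WT mice (adjusted p = 0.00323). It encodes iRhom2, the protein that carries the TNF-cleaving protease to the cell surface. Spn, a gene for a leukocyte surface protein on the same list, rose by 2.49 (adjusted p = 0.0477) and 4.17 (adjusted p = 0.00215). Its part in TNF release was not tested. Rhbdf1, the homolog of Rhbdf2, was lower in Fgg390-396A mice, at 0, 0.0494 and 0.476 CPM against 1.09, 2.52 and 1.21 CPM in microglia.

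Ligands and receptors of the superfamily changed in both directions. Tnfsf13 rose by 5.83 (adjusted p = 6.06e-06, edgeR) in WT and 4.53 (adjusted p = 3.21e-05) in Fgg390-396A infiltrating myeloid cells over microglia, and Tnfsf12 by 2.73 (adjusted p = 1.69e-05) and 2.34 (adjusted p = 6.1e-05). Tnfsf14, known as LIGHT, was at 9.75, 5.42 and 15.4 CPM in WT and 16.3, 8.46 and 9.91 CPM in Fgg390-396A infiltrating myeloid cells and at or below 0.878 CPM in all microglia libraries. Tnfsf13b, the gene for BAFF, was lower in WT infiltrating myeloid cells (-2.04, adjusted p = 0.00696). Tnfrsf26 rose by 3.49 (adjusted p = 0.00026) and 5.34 (adjusted p = 6.79e-06) and Tnfrsf23, a decoy receptor gene, by 1.98 (adjusted p = 0.00114) and 2.18 (adjusted p = 0.000416). Tnfrsf9 was at 15.9, 8.19 and 6.89 CPM in Fgg390-396A infiltrating myeloid cells against 0.567, 0.956 and 0.241 CPM in microglia (4.10, adjusted p = 0.000313). Tnfrsf17 had 0 counts in all 3 Fgg390-396A infiltrating myeloid libraries and at most 2 in WT libraries, while microglia had between 0.0724 and 14.9 CPM.

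The genes whose log2 CPM followed each member most closely over the 21 libraries were named by Pearson's r among 7802 genes with a mean of at least 5 CPM, as a description in which all points share the libraries, their depth and their cell populations. Tnf was followed by the chemokine genes Ccl3 (r = 0.93) and Ccl4 (r = 0.93) and by the ribosomal protein gene Rpl10a (r = 0.92). Ripk3 was followed by the chemokine gene Ccl2 (r = 0.95), Cox7b (r = 0.95) and Txnrd1 (r = 0.95). Traf1 was followed by Ahr, the aryl hydrocarbon receptor gene (r = 0.96), Bst1 (r = 0.95) and Slc25a24 (r = 0.95), and Birc3 by Gabpa (r = 0.94), Lyst (r = 0.93) and Spty2d1 (r = 0.91). For Tnfrsf1b they were Col4a3bp (r = 0.94), Grb2 (r = 0.92) and Ctdsp1 (r = 0.91), and for Tnfrsf1a Il13ra1 (r = 0.80), Tmbim6 (r = 0.80) and Smap1 (r = 0.80). Among the members, Tnf and Ripk3 (r = 0.80), Tnfrsf1b and Traf1 (r = 0.80), and Traf1 and Birc3 (r = 0.78) were most alike, and Tnf and Tnfrsf1a had r = -0.05.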

How the data were processed

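RNA of 40000 sorted microglia or 25000 sorted infiltrating myeloid cells per library was sequenced. Per the paper's methods, the authors ran nf-core/rnaseq, with salmon as the quantifier, against GRCm38. The deposited values are expected counts, the length-corrected abundance of each gene scaled up to the mapped reads of its library, with no normalization between libraries. The submitters' processing notes name R 4.2.0 and DESeq2 1.36.0. Of gene rows, 56.8% held a value that was not whole, and values were rounded to whole counts. Of 45706 identifiers, 45143 matched GENCODE M21, which gave symbols, and 563 did not. No annotated gene overlaps the 6 members. Promoters came from RefSeq, which had an entry for all 6.

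Groups came from the sample titles. Counts were fitted in R 4.3.3 with edgeR 4.0.16 (TMM, glmQLFit, glmQLFTest) in all 21 libraries with 1 mean per group, a gene being tested when its counts over the 21 libraries came to at least 5. Intervals are 95% t intervals from the quasi-likelihood fit, and the common biological coefficient of variation was 0.643. The script was tested on simulated data. Replicate pairs differed by more than counting noise (chi-square per degree of freedom of at least 18.6). Replicates of a group are pools of different brains, so p-values measure the spread between pools. The members, lists and tests were chosen with earlier results of these data known.

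Named genes were the 6 members, up to 3 called genes per direction, list and comparison with the smallest adjusted p (not every one is printed), and the 3 genes most alike to each member. Mlkl in WT mice was named after its values were seen. Alternatives were DESeq2 1.42.0 (Wald test), its size factors, filterByExpr, no filter, library sizes without ribosomal RNA, a block for the replicate number, fits restricted to the groups compared, a bar of 1.5 at 1 d, and each library left out in turn. Deviations of same-numbered libraries correlated above 0.1 in all 3 pairs between WT and Fgg390-396A microglia at 1 d (r = 0.37, 0.15 and 0.10), which was taken as pairing. The sample titles give replicate numbers only and name no pairing. In no other comparison did all 3 pass (0.13, 0.17 and 0.02 between WT infiltrating myeloid cells and microglia). Between WT and Fgg390-396A microglia at 1 d, 0 of 6 members were called with the replicate block, as without it. The values printed for that comparison come from the fit without the block.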

Additional observations from a re-analysis of the deposited data

How the results depend on the processing

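For the members, 45 fold changes were recomputed, which gave 639 alternative values: 599 kept their direction and side of the threshold, 18 lost a call, 5 gained one and 17 turned in sign, and of these 17 no value was called. The number of members called was within 1.5 times that reported except as follows, and the cause was not tested. In a fit of the compared groups alone, 0 members were called at 7 d against sham controls in WT and in Fgg390-396A mice, and 1 from 1 d to 7 d in Fgg390-396A mice, where DESeq2 also called 1. With single libraries left out, the count ranged from 0 to 1 for Fgg390-396A microglia at 7 d against sham controls, from 1 to 2 for WT microglia from 1 d to 7 d, and from 0 to 1 for Fgg390-396A microglia from 1 d to 7 d.

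Sign changes concerned log2 fold changes near 0. Traf1 in Fgg390-396A microglia at 1 d against sham controls was -0.0034 with DESeq2 and ranged from -0.77 to 0.49 with libraries left out. Between genotypes, Tnf at 7 d ranged from -0.42 to 0.20 and, in infiltrating myeloid cells, Ripk3 from -0.71 to 0.033 and Traf1 from -0.19 to 0.48 with libraries left out, and Traf1 was -0.0445 with the replicate block. Tnf in Fgg390-396A infiltrating myeloid cells against microglia was 0.11 with DESeq2 size factors and with the DESeq2 test, 0.13 with filterByExpr, 0.021 with the replicate block and 0.12 in a fit of the compared groups alone, and ranged from -0.25 to 0.30 with libraries left out.

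With the replicate block, 3 in place of 4 members were called between Fgg390-396A infiltrating myeloid cells and microglia, Ripk3 having an adjusted p of 0.0642 (edgeR), and no other call of a member changed. Outside WT and Fgg390-396A microglia at 1 d the replicate number was not taken as pairing. The labels do not say whether microglia and infiltrating myeloid libraries of the same number came from the same brains. Over all pairs of groups, same-numbered deviations correlated at a mean r of 0.02 against -0.01 for other pairs. Depth limits Traf1 and Ripk3 in microglia, at as few as 8 and 12 counts.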
